A study of Homo sapiens with 12 samples.

Results

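Translation initiation and elongation factors are the proteins that bring ribosomes to messenger RNA and carry them along it. A set of 45 genes encoding cytosolic initiation factors (eIF), elongation factors (eEF) and the main poly(A)-binding protein was defined by gene symbol. All 45 symbols were among the 27814 named genes of the count table. A test was possible for 44 of them, among 16208 genes tested, because EIF4A1 was listed at 0 in every library. RNA was sequenced from BT474 cells, a luminal breast carcinoma line in which ERBB2 (HER2) is amplified. There were 4 groups with 3 libraries each, 12 in all: cells labelled BRD8 knockout (KO) given 200 nM neratinib for 4 h, parental cells given the same dose and time, KO-labelled cells in DMSO, and parental cells in DMSO, the solvent. Neratinib blocks EGFR, HER2 and related kinases by binding them covalently. BRD8 carries a bromodomain and belongs to the TIP60 histone acetyltransferase complex. The site of the edit in BRD8 is not labelled, nor is it labelled whether a clone or a pool was used or whether replicates were separate cultures. The p-values thus cover the spread between these libraries alone, and that spread may be technical.

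In initiation, eIF2 with GTP delivers the initiator tRNA to the small ribosomal subunit, eIF3 holds that complex together, and eIF4F binds the mRNA cap. In eIF4F, eIF4E contacts the cap, eIF4G is the scaffold and eIF4A unwinds the leader with help from eIF4B and eIF4H. In elongation, eEF1A delivers aminoacyl-tRNA, the eEF1B subunits recharge eEF1A with GTP, and eEF2 moves the ribosome by a codon. Many mRNAs of elongation factors, some of initiation factors and those of ribosomal proteins begin with a C and a run of pyrimidines, the 5′ terminal oligopyrimidine (TOP) tract, and their translation depends on mTOR, which acts downstream of HER2 and PI3K. The measurements here are of mRNA and say nothing of translation itself. In bulk RNA, fewer cells of a type and less RNA per cell cannot be told apart.

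Most members known as TOP mRNAs moved differently from the others after neratinib. The bases around the annotated starts are therefore shown for 5 TOP members, of which EEF1B2 fell, and for 3 members outside that class. Each window runs from 10 bases before the start to 20 after it, from RefSeq on GRCh38.p14, 5′ to 3′ on the gene's own strand. Capitals mark a C followed by at least 6 C or T bases, searched on that strand only.
EEF1A1: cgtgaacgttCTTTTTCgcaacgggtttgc
EEF2: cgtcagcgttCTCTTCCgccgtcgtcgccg
EEF1B2: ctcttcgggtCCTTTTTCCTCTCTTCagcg
EIF3F: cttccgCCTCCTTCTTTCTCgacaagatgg
EIF4B: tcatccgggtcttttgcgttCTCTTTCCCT
EIF4E: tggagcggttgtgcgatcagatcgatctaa
EIF2S1: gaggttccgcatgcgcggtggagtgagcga
EIF4A2: gcgccgctgtcttttcagtcgggcgctgag
The windows lie at chr6:73521013-73521042 on the minus strand for EEF1A1, chr19:3985444-3985473 on the minus strand for EEF2, chr2:206159885-206159914 on the plus strand for EEF1B2 and chr11:7987327-7987356 on the plus strand for EIF3F. Those of EIF4B (chr12:53006446-53006475), EIF2S1 (chr14:67360318-67360347) and EIF4A2 (chr3:186783567-186783596) are on the plus strand, and that of EIF4E (chr4:98929114-98929143) is on the minus strand. In EEF1A1, EEF2 and EEF1B2 the marked tract began at the annotated start itself. Another annotated start of EEF1B2, with its window at chr2:206159599-206159628, had no tract. A tract was found for 5 of the 6 TOP members with a window (83.3%), for 9 of 30 other members (30.0%) and for 56 of 68 cytosolic ribosomal protein genes (82.4%). Of all tested genes with a window, 20.1% held one, and the TOP member with a window and no tract was EEF1G. A match describes letters and not the start that these cells use.

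Each library held between 32471198 and 44726160 counts of named genes, and no library stood apart from its replicates. BRD8 mRNA itself was at 67.4 ± 1.39 CPM (a gene's reads relative to the scaled library total) in KO-labelled and 64.1 ± 0.706 CPM in parental cells in DMSO, and at 156 ± 2.44 CPM in KO-labelled and 236 ± 5.23 CPM in parental cells in neratinib (SD, n = 3 each). The log2 fold change of KO-labelled over parental cells was 0.07 ± 0.0271 in DMSO (adjusted p = 0.0189, edgeR). In neratinib it was −0.59 ± 0.0211 (adjusted p = 3.16e-27, edgeR). BRD8 mRNA was thus lower in KO-labelled cells in neratinib but not in DMSO, and the label is used as a name only. All 8 luminal epithelial markers were at 1 CPM or more, against 1 of 4 basal, 1 of 3 fibroblast, 0 of 2 endothelial and 0 of 4 immune markers. The summed immune markers reached at most 0.284 CPM. COL1A1, the fibroblast marker found, brought the fibroblast sum to between 112 and 116 CPM in KO-labelled and 89.1 and 92.4 CPM in parental neratinib libraries, against 79.6 to 84.2 CPM in KO-labelled and 69.7 to 75.8 CPM in parental DMSO libraries. The share of mitochondrially encoded transcripts was 5.21% ± 0.0815 for KO-labelled and 4.51% ± 0.372 for parental cells in neratinib, against 2.74% ± 0.242 for KO-labelled and 2.97% ± 0.163 for parental cells in DMSO. The part of these sums and shares in the results was not tested.

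The factors differed widely in abundance. In parental cells in DMSO, EEF1A1, the main eEF1A gene, had the highest level per length at 2060 ± 53.9 CPM per kilobase of its longest transcript. It was followed by EEF1G, a subunit of eEF1B, at 894 ± 5.22, by EEF2 at 545 ± 3.42, by the ribosomal anti-association factor EIF6 at 489 ± 2.47 and by EIF4G2, an eIF4G relative that lacks the eIF4E-binding part, at 464 ± 0.933 CPM per kilobase. These 5 neighbours in the order did not overlap between libraries. With the median transcript length instead, EEF1A1 stayed first and EIF6 stood 7th, so the order depends on the length taken. EEF1A1 alone took 0.848% of all counts for KO-labelled and 1.09% for parental cells in neratinib, against 0.771% for KO-labelled and 0.890% for parental cells in DMSO. All members together took 2.30% ± 0.0128 in KO-labelled and 2.64% ± 0.0171 in parental cells in neratinib, against 2.23% ± 0.0174 and 2.39% ± 0.0163 in KO-labelled and parental cells in DMSO. Without EEF1A1 the 4 group means lay between 1.46% and 1.55%.

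**Figure D1:**
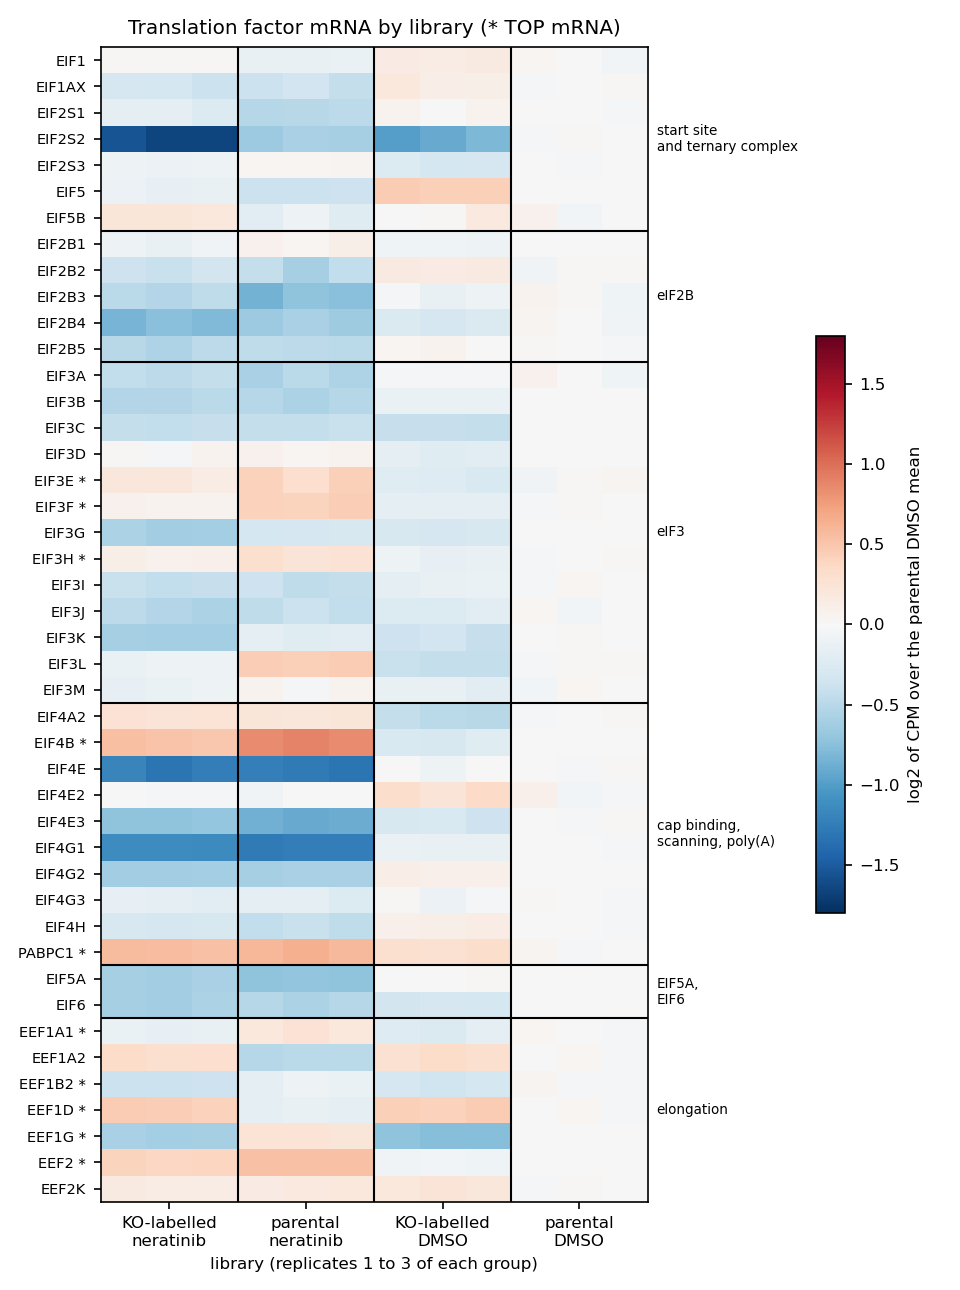
Rows are the 44 tested members by role and columns the 12 libraries in their 4 groups. Colour gives log2 of CPM over the parental DMSO mean, red above and blue below it, and an asterisk marks TOP mRNAs. EIF4E and EIF4G1 are blue in all 6 neratinib libraries, and EIF4B and PABPC1 are red there. EIF2S2 is blue in all 6 KO-labelled libraries and also in the parental neratinib libraries.

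Neratinib lowered more of the factors than it raised. In parental cells 28 of the 44 tested members fell and 14 rose at an adjusted p below 0.05, against 38.9% of all tested genes that fell and 41.8% that rose. In KO-labelled cells 26 fell and 13 rose, against 38.4% and 38.9% of all tested genes. The median log2 fold change of the members was −0.25 in parental and −0.18 in KO-labelled cells, against 0.04 and 0.02 over all tested genes. Changes of at least 1.5-fold were found for 10 members in parental cells (22.7%) and 7 in KO-labelled cells (15.9%), against 39.8% and 33.1% of all tested genes. The comparisons in parental and in KO-labelled cells share no library, and 24 members fell in both (24 of 28 and 24 of 26) while 12 rose in both (12 of 14 and 12 of 13). Of all tested genes, 32.2% fell in both (82.8% of those that fell in parental and 83.8% of those that fell in KO-labelled cells) and 32.9% rose in both (78.8% and 84.8%).

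The cap-binding complex held the largest changes of either sign. EIF4E, the cap-binding protein, had 37.8, 34.4 and 36.3 CPM in KO-labelled cells in neratinib, against 86.5, 80.7 and 85.7 CPM in KO-labelled DMSO libraries. In parental cells it had 36.5, 35.7 and 34.5 CPM in neratinib, against 86.5, 84.2 and 87.1 CPM in DMSO. Every neratinib library lay far below every DMSO library, and the genotypes were close to each other. The log2 fold change was −1.22 ± 0.0338 (SE) in KO-labelled cells (adjusted p = 8.31e-32) and −1.27 ± 0.0335 in parental cells (adjusted p = 9.69e-33, edgeR's quasi-likelihood test here and below).

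EIF4G1, the main scaffold that joins eIF4E to eIF4A and eIF3, had 389, 388 and 386 CPM in KO-labelled cells in neratinib, against 781, 774 and 777 CPM in DMSO. In parental cells it had 352, 359 and 358 CPM in neratinib, against 860, 855 and 842 CPM in DMSO. The groups did not overlap, and the log2 fold change in parental cells was −1.26 ± 0.0182. The fall was smaller in KO-labelled cells, by 0.26 ± 0.0255 (adjusted p = 2.23e-11). EIF4G2 fell as well, by 0.72 on the log2 scale in KO-labelled and by 0.59 in parental cells, and EIF4G3, a further scaffold paralog, fell by only 0.13 and 0.19.

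EIF4B, which stimulates the eIF4A helicase, moved the other way. It had 494, 484 and 475 CPM in KO-labelled cells in neratinib, against 279, 277 and 291 CPM in DMSO, and 613, 629 and 614 CPM in parental cells in neratinib, against 340, 340 and 336 CPM in DMSO. All neratinib libraries were above all DMSO libraries. The log2 rise was 0.78 ± 0.0201 in KO-labelled cells (adjusted p = 5.96e-33) and 0.87 ± 0.0197 in parental cells (adjusted p = 3.29e-35). Reads of EIF4B can be shared with other annotated genes over 37.1% of the 50-base windows of its longest transcript, so its level carries that uncertainty.

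EIF4A2, a helicase paralog, rose in both genotypes but by unequal amounts. It had 504, 492 and 499 CPM in KO-labelled cells in neratinib, against 311, 299 and 297 CPM in DMSO, and 486, 482 and 485 CPM in parental cells in neratinib, against 414, 419 and 425 CPM in DMSO. The KO-labelled DMSO libraries were the lowest of the 4 groups and the neratinib libraries of both genotypes were close together. The log2 fold change was 0.72 ± 0.0193 in KO-labelled and 0.21 ± 0.0190 in parental cells, a difference of 0.51 ± 0.0271 (adjusted p = 6e-20). EIF4A1, the usually more abundant helicase gene on chromosome 17 from 7572706 to 7579005, was listed at 0 counts. Of its 1707 windows of 50 bases, 83.0% also occur in SENP3-EIF4A1, an overlapping readthrough gene, and 1707 in some other annotated gene. SENP3-EIF4A1 was itself listed at 0 counts in every library except KO-labelled DMSO replicate 1, which had 1, so the reads were not listed there either. Since all windows are shared, the 0 of EIF4A1 is not read as absence of the mRNA.

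PABPC1, which binds poly(A) and eIF4G, had 1742.8, 1719.5 and 1680.8 CPM in KO-labelled cells in neratinib, against 1429.8, 1422.9 and 1457.6 CPM in DMSO. It had 1776.4, 1822.1 and 1754.5 CPM in parental cells in neratinib, against 1211.2, 1141.8 and 1159.7 CPM in DMSO. Neratinib libraries were higher in each genotype without overlap, by 0.25 ± 0.0203 on the log2 scale in KO-labelled and 0.61 ± 0.0203 in parental cells. The difference of −0.35 ± 0.0287 passed the test (adjusted p = 6.02e-14). The remaining cap-complex members fell or did not pass. EIF4H, a cofactor of eIF4A, fell by 0.40 in KO-labelled and by 0.43 in parental cells. EIF4E3, a weaker cap binder, fell by 0.41 and by 0.89. EIF4E2, a cap binder linked to repression, fell by 0.31 in KO-labelled cells and was at −0.03 ± 0.0320 in parental cells (adjusted p = 0.454).

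**Figure D2:**
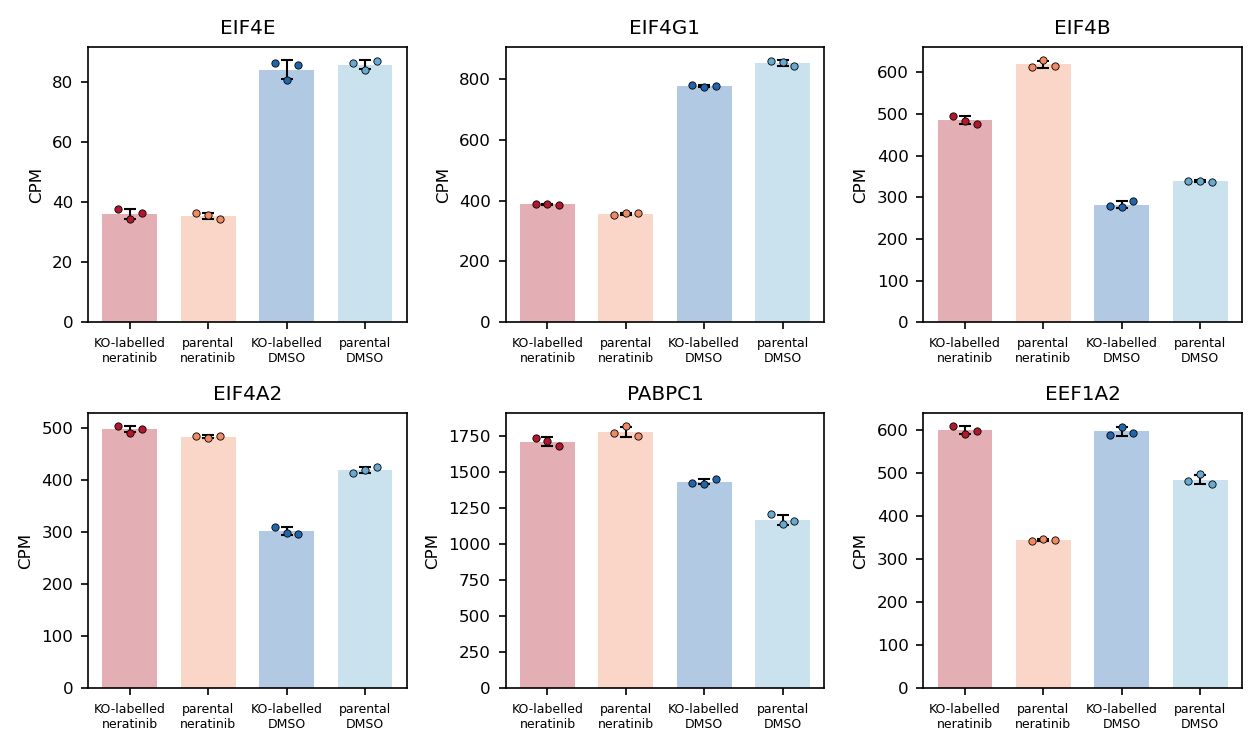
Bars give mean CPM in each of the 4 groups, error bars the SD and points the 3 libraries, for EIF4E, EIF4G1, EIF4B, EIF4A2, PABPC1 and EEF1A2. EIF4E stays near 36 CPM in neratinib in both genotypes, and EEF1A2 is lowest in parental cells in neratinib.

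Among the factors of the ternary complex and the start site, 6 of 7 fell in parental cells and 5 of 7 in KO-labelled cells. The shares over all tested genes were 38.9% and 38.4%. EIF2S1, the eIF2 alpha subunit that stress kinases phosphorylate, had 102, 102 and 96.5 CPM in KO-labelled cells in neratinib, against 119, 114 and 119 CPM in DMSO. It had 79.9, 80.9 and 82.5 CPM in parental cells in neratinib, against 114, 114 and 112 CPM in DMSO. Its fall was smaller in KO-labelled cells, −0.22 ± 0.0252, than in parental cells, −0.49 ± 0.0259, without overlap in either. EIF2S2, the beta subunit, fell by 0.72 in KO-labelled and by 0.61 in parental cells, whereas EIF2S3, the gamma subunit that binds GTP, rose by 0.20 and by 0.04 (adjusted p = 0.0454 in parental cells). EIF5, which makes eIF2 hydrolyse its GTP, fell by 0.56 and 0.38, and EIF1AX, a scanning factor, by 0.47 and 0.39. EIF1, which guards start codon choice, fell by 0.12 and 0.13. EIF5B, which joins the large subunit, rose by 0.14 ± 0.0313 in KO-labelled cells and fell by 0.17 ± 0.0322 in parental cells.

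Of eIF2B, the exchange factor that reloads eIF2 with GTP, EIF2B2 to EIF2B5 fell in both genotypes. EIF2B3 changed by −0.41 ± 0.0503 in KO-labelled and by −0.78 ± 0.0513 in parental cells, and EIF2B4 by −0.52 ± 0.0351 and −0.63 ± 0.0332. EIF2B5, the catalytic subunit, fell by 0.54 and 0.47, and EIF2B2 by 0.53 and 0.48. EIF2B1, the subunit that senses phosphorylated eIF2, stood apart at −0.02 ± 0.0258 in KO-labelled cells (adjusted p = 0.505) and 0.07 ± 0.0251 in parental cells (adjusted p = 0.00831).

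The 13 eIF3 genes went both ways after neratinib, as tested genes at large did. In parental cells 7 fell and 5 rose, against 38.9% and 41.8% of all tested genes. In KO-labelled cells 6 fell and 5 rose, against 38.4% and 38.9%. The genes that rose in both were EIF3D, EIF3E, EIF3F, EIF3H and EIF3L, with rises between 0.21 and 0.41 in KO-labelled and between 0.06 and 0.44 in parental cells. EIF3A and EIF3B, the core scaffold subunits, fell by 0.42 and 0.40 in KO-labelled and by 0.55 and 0.53 in parental cells, and EIF3G, EIF3I, EIF3J and EIF3K fell in both. EIF3M was at 0.03 ± 0.0283 and 0.04 ± 0.0274 (adjusted p = 0.292 and 0.219). EIF3C was at −0.01 ± 0.0180 in KO-labelled cells and −0.42 ± 0.0178 in parental cells. Its reads cannot be told from those of EIF3CL over 96.8% of its windows, so the EIF3C values stand for both copies.

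EIF5A, the hypusine-bearing factor that helps ribosomes through difficult peptide bonds, fell by 0.61 ± 0.0190 in KO-labelled and by 0.72 ± 0.0191 in parental cells, with 30.1% of its windows shared with EIF5AL1. EIF6, which keeps the ribosomal subunits apart, had 415, 407 and 423 CPM in KO-labelled cells in neratinib, against 500, 512 and 506 CPM in DMSO. It had 443, 426 and 442 CPM in parental cells in neratinib, against 627, 633 and 629 CPM in DMSO. No neratinib library reached a DMSO library, and the falls were −0.28 ± 0.0193 in KO-labelled and −0.53 ± 0.0192 in parental cells.

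None of the 7 elongation factors changed by 1.5-fold with neratinib, as 39.8% of all tested genes did in parental and 33.1% in KO-labelled cells. EEF2 had 2285.1, 2226.2 and 2249.1 CPM in KO-labelled cells in neratinib, against 1645.8, 1662.3 and 1634.4 CPM in DMSO, and 2490.9, 2487.9 and 2481.8 CPM in parental cells in neratinib, against 1712.1, 1730.9 and 1730.9 CPM in DMSO. It was higher in all neratinib libraries, by 0.45 ± 0.0176 and 0.53 ± 0.0176 on the log2 scale. EEF1A1 rose by 0.08 ± 0.0204 in KO-labelled cells (adjusted p = 0.000388) and by 0.21 ± 0.0204 in parental cells, and EEF1G rose by 0.16 and 0.24. EEF2K, the kinase that inhibits eEF2, rose by 0.17 ± 0.0271 in parental cells and fell by 0.06 ± 0.0268 in KO-labelled cells (adjusted p = 0.028). The EEF2K fall no longer passed the test without any 1 of 6 libraries, at −0.0628 to −0.0572 with adjusted p from 0.0513 to 0.081: parental DMSO 3, KO-labelled DMSO 2, parental neratinib 1 or 3, and KO-labelled neratinib 2 or 3. With library totals it was −0.00921, and among genes averaging 5 CPM or more it was 0.000365. EEF1A2, the eEF1A isoform of muscle and neurons in normal tissue, was at 0.00 ± 0.0192 in KO-labelled cells (adjusted p = 0.820) and fell by 0.49 ± 0.0197 in parental cells (adjusted p = 6.48e-26).

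Most members known as TOP mRNAs went against the rest of the set in both genotypes. That class was listed with earlier results of these data known, so the contrast is described and was not tested. Of 10 TOP members, 8 rose and 2 fell in parental cells (median 0.32), and 8 rose and 1 fell in KO-labelled cells (median 0.22). Of the 34 other tested members, 6 rose and 26 fell in parental cells (median −0.43), and 5 rose and 25 fell in KO-labelled cells (median −0.30). The shares over all tested genes were 41.8% risen and 38.9% fallen in parental cells, and 38.9% and 38.4% in KO-labelled cells. EEF1B2, which lacked the rise, fell by 0.05 ± 0.0234 in KO-labelled cells (adjusted p = 0.0377) and by 0.13 ± 0.0225 in parental cells, and EEF1D fell by 0.16 in parental cells and was at 0.01 ± 0.0194 in KO-labelled cells. Among 85 cytosolic ribosomal protein genes, which are TOP mRNAs too, 68 rose and 8 fell in parental cells (median 0.14), and 65 rose and 4 fell in KO-labelled cells (median 0.13). Grouped by the sequence window instead of the literature, 6 of the 14 members with a tract rose and 7 fell in either genotype. Their median was −0.05 in parental and −0.01 in KO-labelled cells. Among 21 tested members with a window and no tract, 4 rose and 16 fell in parental cells (median −0.43). In KO-labelled cells 3 of those rose and 16 fell (median −0.4). The contrast was smaller by the sequence window than by the known class, but the 2 groupings do not cover the same genes. Only 6 of the 10 TOP members had a window, and EEF1D, EIF3E, EIF3H and PABPC1 had none. A tract was also counted anywhere in the 30 bases and not only at the start.

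**Figure D3:**
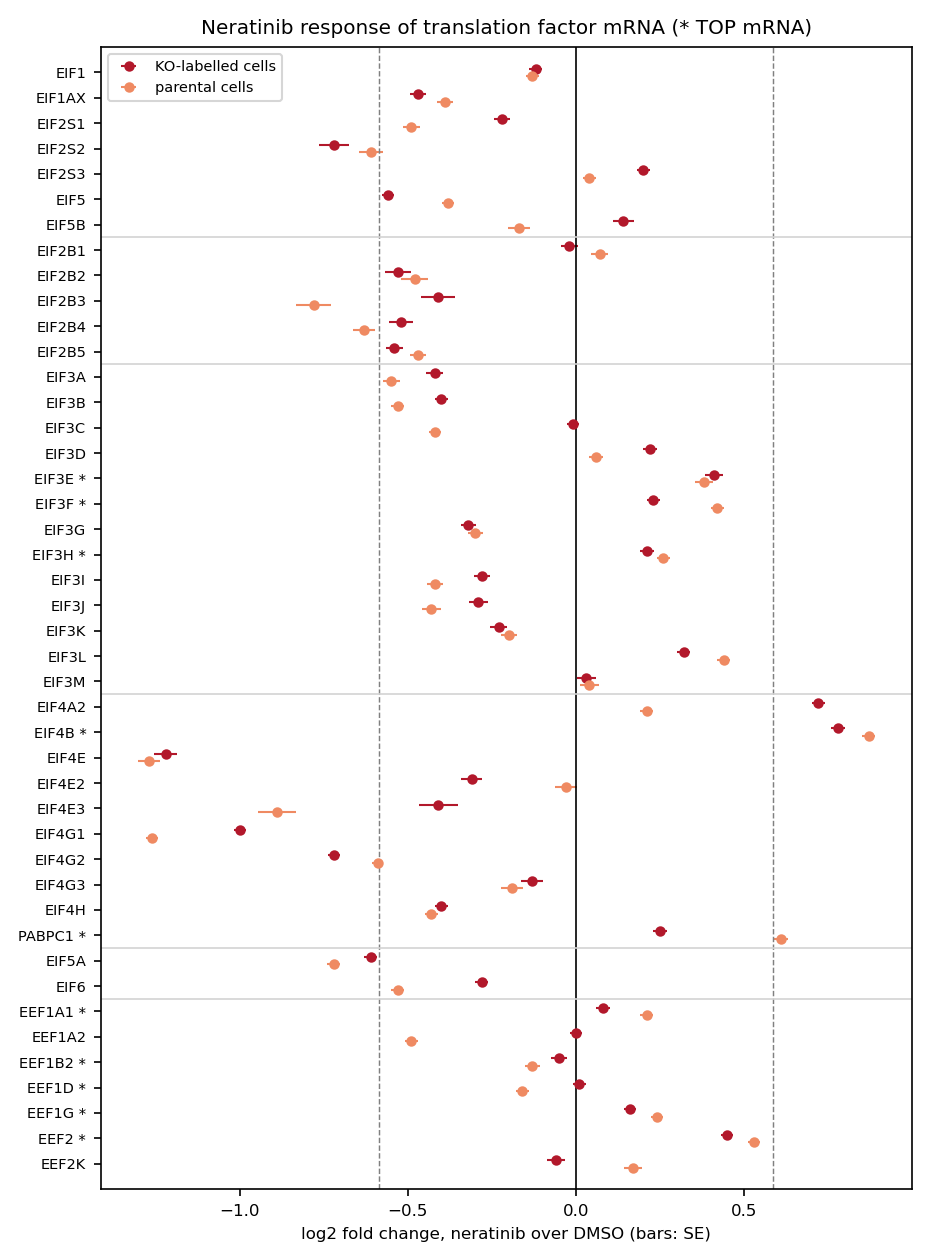
Points give each member's log2 fold change of neratinib over DMSO in KO-labelled and parental cells, with SE bars, by role. Dashed lines mark 1.5-fold and asterisks mark TOP mRNAs, of which 8 of 10 lie right of 0 in parental cells.

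KO-labelled cells had lower levels of most factors in DMSO. There 25 of 44 tested members were lower and 11 higher, against 35.6% of all tested genes that were lower and 36.0% that were higher. In neratinib 19 were lower and 14 higher, against 36.9% and 34.7% of all tested genes. The members' median log2 fold change was −0.12 in DMSO and −0.03 in neratinib, with 0.00 and −0.02 over all tested genes. At 1.5-fold or more, 2 members differed in DMSO (4.55%) and 4 in neratinib (9.09%), against 23.1% and 22.9% of all tested genes. Of the members lower in DMSO, 18 were lower in neratinib too (18 of 25 and 18 of 19), and 6 were higher in both (6 of 11 and 6 of 14). Of all tested genes, 25.3% were lower in both (71.0% of those lower in DMSO and 68.5% of those lower in neratinib) and 25.5% were higher in both (70.8% and 73.4%). These comparisons share libraries with those of neratinib against DMSO, so their values are given side by side and not counted as separate support.

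EIF2S2 showed the largest difference between the genotypes. It had 28.6, 30.3 and 32.3 CPM in KO-labelled DMSO libraries, against 55.7, 57.6 and 56.7 CPM in parental cells, and 19.4, 18.0 and 18.1 CPM in KO-labelled cells in neratinib, against 36.2, 37.7 and 37.6 CPM in parental cells. KO-labelled libraries were lower in both treatments without overlap, by −0.90 ± 0.0363 in DMSO (adjusted p = 2.81e-25) and −1.01 ± 0.0430 in neratinib (adjusted p = 2.25e-24). Of the other eIF2 subunits, EIF2S1 was at 0.04 ± 0.0248 in DMSO (adjusted p = 0.114) and 0.31 ± 0.0263 higher in neratinib, while EIF2S3 was also lower, by −0.29 ± 0.0198 and −0.13 ± 0.0196 without overlap. Without KO-labelled DMSO replicate 2, EIF2S1 passed the test in DMSO at 0.0653 (adjusted p = 0.0326). EIF2S2 lies on chromosome 20 from 34088298 to 34112332, minus strand (GENCODE 29, GRCh38), and EIF6, on the same chromosome from 35278911 to 35284985, was also lower in KO-labelled cells, by −0.32 ± 0.0190 in DMSO and −0.07 ± 0.0194 in neratinib (adjusted p = 0.000724). EEF1A2, far along that chromosome from 63488012 to 63499322, was higher.

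The subunits of eEF1B, which recharges eEF1A with GTP, parted. EEF1G, the gamma subunit, had 822, 804 and 802 CPM in KO-labelled DMSO libraries, against 1367.4, 1363.9 and 1352.2 CPM in parental cells, and 911, 894 and 902 CPM in KO-labelled cells in neratinib, against 1608.9, 1613.4 and 1585.6 CPM in parental cells. EEF1D, the delta subunit, had 726, 721 and 742 CPM in KO-labelled DMSO libraries, against 540, 554 and 526 CPM in parental cells, and 744, 731 and 723 CPM in KO-labelled cells in neratinib, against 480, 492 and 479 CPM in parental cells. No library of either genotype overlapped the other for these genes, EEF1G being lower and EEF1D higher in KO-labelled cells. The log2 fold change of EEF1G was −0.75 ± 0.0180 in DMSO and −0.83 ± 0.0180 in neratinib, and that of EEF1D 0.43 ± 0.0196 and 0.60 ± 0.0197. EEF1B2, the alpha subunit with exchange activity, was lower by −0.33 ± 0.0228 and −0.25 ± 0.0231. Windows shared with other annotated genes made up 98.7% for EEF1G, 472 of 1049 for EEF1B2 and 23.0% for EEF1D, so part of each level may belong to other loci.

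The eEF1A isoforms moved apart. EEF1A2 had 590, 609 and 594 CPM in KO-labelled DMSO libraries, against 483, 498 and 476 CPM in parental cells, and 610, 592 and 598 CPM in KO-labelled cells in neratinib, against 342, 347 and 346 CPM in parental cells. It was higher in all KO-labelled libraries, by 0.30 ± 0.0193 in DMSO (adjusted p = 4.3e-18) and 0.80 ± 0.0196 in neratinib (adjusted p = 2.51e-33). EEF1A1 had 7815.7, 7674.0 and 8089.1 CPM in KO-labelled DMSO libraries, against 9393.4, 9146.9 and 8914.8 CPM in parental cells, and was lower by −0.22 ± 0.0205. In neratinib it had 8398.6, 8240.1 and 8320.4 CPM in KO-labelled cells, against 10447.6, 10951.9 and 10431.0 CPM in parental cells, and was lower by −0.35 ± 0.0205. Other annotated genes share 29.3% of the windows of EEF1A1. EEF2 was lower by −0.07 ± 0.0176 and −0.14 ± 0.0175, and EEF2K was higher by 0.21 ± 0.0271 in DMSO and at −0.03 ± 0.0269 in neratinib (adjusted p = 0.378).

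The eIF3 genes were the most uniform group in DMSO, where 12 of 13 were lower in KO-labelled cells, against 35.6% of all tested genes. EIF3A was at −0.03 ± 0.0244 (adjusted p = 0.269). The median of the 13 genes was −0.20 and their values ran from −0.42 to −0.03. EIF3L had 196, 192 and 191 CPM in KO-labelled DMSO libraries, against 252, 261 and 261 CPM in parental cells, a difference of −0.42 ± 0.0200 without overlap. Other annotated genes share 59.7% of the windows of EIF3L, so part of its level may belong to other loci. EIF3C, read together with its copy EIF3CL, had 387, 387 and 385 CPM in KO-labelled DMSO libraries, against 517, 515 and 515 CPM in parental cells, a difference of −0.42 ± 0.0178 without overlap. EIF3K was lower by −0.37 ± 0.0242, EIF3G by −0.29 ± 0.0220 and EIF3E by −0.24 ± 0.0273. In neratinib 8 of the 13 were lower, against 36.9% of all tested genes. EIF3A alone was higher, by 0.10 ± 0.0260 (adjusted p = 0.00087), against 34.7% of all tested genes. EIF3L was then lower by −0.53 ± 0.0193 and EIF3K by −0.41 ± 0.0251, while EIF3B, EIF3C, EIF3D and EIF3I did not pass the test, with values from −0.04 to 0.01. The 13 genes together took 0.229% of all counts for KO-labelled and 0.267% for parental cells in DMSO.

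In the cap complex, EIF4E did not pass the test between genotypes, at −0.03 ± 0.0297 in DMSO (adjusted p = 0.384) and 0.02 ± 0.0383 in neratinib (adjusted p = 0.665). EIF4G1 was lower in DMSO, by −0.13 ± 0.0176, and higher in neratinib, by 0.12 ± 0.0185. EIF4A2 was lower in DMSO by −0.47 ± 0.0194 (adjusted p = 6.9e-25) and barely higher in neratinib, by 0.04 ± 0.0189 (adjusted p = 0.0487). The EIF4A2 value no longer passed the test without any 1 of 7 libraries, at 0.0326 to 0.0398 with adjusted p from 0.0621 to 0.172: parental DMSO 1 or 2, KO-labelled DMSO 2 or 3, parental neratinib 2, and KO-labelled neratinib 1 or 3. EIF4B was lower by −0.26 ± 0.0203 and −0.35 ± 0.0194. PABPC1 was higher in DMSO by 0.30 ± 0.0203 and lower in neratinib by −0.06 ± 0.0202 (adjusted p = 0.0104), a call lost without parental neratinib replicate 2 (adjusted p = 0.0506) or KO-labelled neratinib replicate 3 (adjusted p = 0.0806).

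Of the members not yet placed, EIF5 was higher in KO-labelled cells by 0.43 ± 0.0180 in DMSO and 0.26 ± 0.0185 in neratinib, and EIF1 by 0.15 in both. EIF4E2 was higher by 0.29 ± 0.0312 in DMSO and at 0.01 ± 0.0322 in neratinib (adjusted p = 0.895). EIF5B was at 0.06 ± 0.0317 in DMSO (adjusted p = 0.0955) and higher by 0.37 ± 0.0319 in neratinib. The remaining eIF2B, EIF1AX, EIF4E3, EIF4G2, EIF4G3, EIF4H and EIF5A values lay between −0.31 and 0.16 in DMSO and between −0.17 and 0.29 in neratinib. Of TOP members, 8 of 10 were lower and 2 higher in DMSO, and of ribosomal protein genes 80 of 85 were lower and 1 higher, with a median of −0.39. The shares over all tested genes were 35.6% lower and 36.0% higher.

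**Figure D4:**
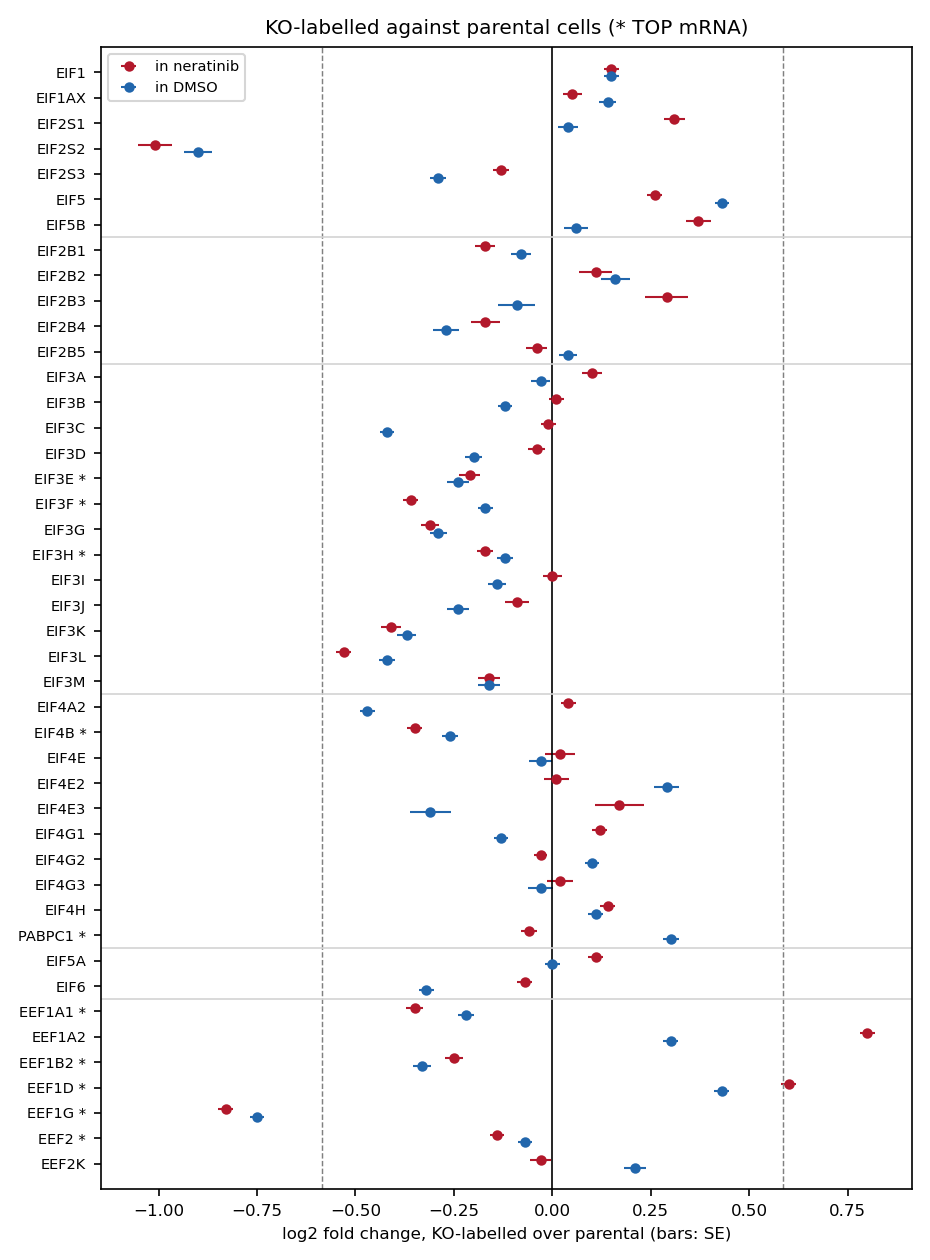
Points give each member's log2 fold change of KO-labelled over parental cells in neratinib and in DMSO, with SE bars, by role. Dashed lines mark 1.5-fold, which EIF2S2 and EEF1G pass below 0 in both treatments and EEF1A2 and EEF1D pass above 0 in neratinib.

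The response to neratinib was compared between the genotypes by the interaction, which subtracts the parental log2 response from the KO-labelled one. Of the 44 members, 18 had a higher and 13 a lower value, against 21.5% and 24.6% of all tested genes. None reached 1.5-fold, as 9.43% of all tested genes did. With the coefficient of variation between replicates set to 0.1, EIF4A2 and EEF1A2 remained called and no member was lower. At that setting 1436 of all 16208 tested genes were called. The largest positive values were 0.51 ± 0.0271 for EIF4A2, 0.50 ± 0.0275 for EEF1A2 (adjusted p = 2.42e-19), 0.48 ± 0.0813 for EIF4E3 and 0.41 ± 0.0254 for EIF3C. The largest negative values were −0.35 ± 0.0287 for PABPC1, −0.29 ± 0.0448 for EIF4E2, −0.24 ± 0.0382 for EEF2K and −0.19 ± 0.0276 for EIF3F. EIF4E was at 0.05 ± 0.0485 (adjusted p = 0.443), with an interaction that did not pass the test although the gene itself fell sharply. The count of lower members was 8 without parental DMSO replicate 3 and 8 with size factors of the DESeq2 kind.

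Ratios of raw counts between paralogs within a library do not depend on scaling. The ratio of EEF1A2 to EEF1A1 was 0.0726, 0.0718 and 0.0719 in KO-labelled cells in neratinib, against 0.0327, 0.0317 and 0.0332 in parental cells in neratinib. In DMSO it was 0.0755, 0.0794 and 0.0734 in KO-labelled cells, against 0.0514, 0.0544 and 0.0534 in parental cells. KO-labelled libraries were higher in each treatment without overlap. The ratio of EIF4G2 to EIF4G1 averaged 3.12 ± 0.0309 in KO-labelled cells in neratinib and 2.56 ± 0.0170 in KO-labelled cells in DMSO. In parental cells it averaged 3.47 ± 0.0206 in neratinib and 2.18 ± 0.0269 in DMSO. EIF4E2 to EIF4E averaged 1.93 ± 0.0745 in neratinib and 1.03 ± 0.0161 in DMSO in KO-labelled cells, and 1.96 ± 0.0994 in neratinib and 0.824 ± 0.0408 in DMSO in parental cells. Ratios of EIF4G3 to EIF4G1 were likewise higher in neratinib, at 0.141 against 0.0772 in KO-labelled and 0.151 against 0.0720 in parental cells.

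**Figure D5:**
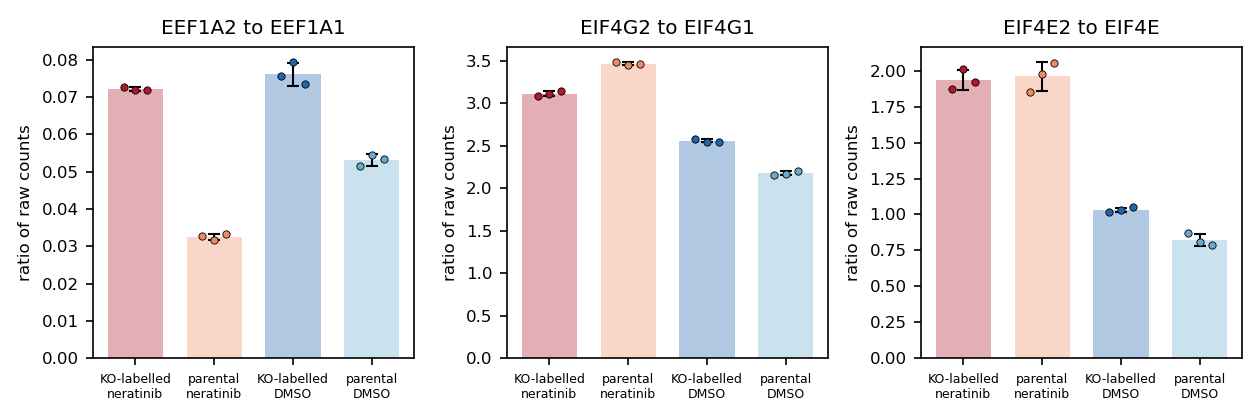
Bars give the mean ratio of raw counts of EEF1A2 to EEF1A1, EIF4G2 to EIF4G1 and EIF4E2 to EIF4E in each group, error bars the SD and points the 3 libraries. The EEF1A2 ratio is lowest in parental cells in neratinib, at 0.0325, and the other ratios are higher in neratinib than in DMSO in both genotypes.

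Of 16 tested regulators of cap binding, 12 fell and 4 rose with neratinib in parental cells, where 38.9% of all tested genes fell and 41.8% rose. In KO-labelled cells 12 fell and 3 rose, against 38.4% and 38.9% of all tested genes. LARP1, which binds TOP mRNAs when mTOR is off, had 102, 104 and 107 CPM in KO-labelled cells in neratinib, against 225, 222 and 231 CPM in DMSO, and 104, 109 and 106 CPM in parental cells in neratinib, against 337, 332 and 323 CPM in DMSO. No neratinib library came near a DMSO library, and the log2 falls were −1.11 ± 0.0233 in KO-labelled and −1.64 ± 0.0226 in parental cells. EIF4EBP1, which sequesters eIF4E when mTOR is off, had 16.3, 14.9 and 15.6 CPM in KO-labelled cells in neratinib, against 23.5, 24.1 and 23.3 CPM in DMSO, and 12.7, 13.7 and 13.1 CPM in parental cells in neratinib, against 28.0, 26.2 and 24.9 CPM in DMSO. It fell with EIF4E without overlap, by 0.60 and by 1.01 on the log2 scale. EIF4EBP2 fell by 0.16 and 0.11, EIF4EBP3 was too low to test, and PDCD4, an inhibitor of eIF4A, fell by 0.08 and 0.06. With library totals the parental EIF4EBP2 value was −0.0293 (adjusted p = 0.178), and PDCD4 was at −0.0256 in KO-labelled cells (adjusted p = 0.257) and 0.0225 in parental cells (adjusted p = 0.316). PDCD4 in parental cells also did not pass without parental DMSO replicate 1 (adjusted p = 0.0513). The DEAD-box helicase gene DDX3X fell by 1.27 and 0.93. PAIP2, an inhibitor of poly(A)-binding protein, rose by 0.92 ± 0.0267 in KO-labelled and 1.05 ± 0.0268 in parental cells, and its paralog PAIP2B rose by 0.75 and 1.27.

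Between genotypes, 10 of these 16 genes were lower and 6 higher in KO-labelled cells in DMSO, against 35.6% and 36.0% of all tested genes. In neratinib 7 were lower and 7 higher, against 36.9% and 34.7%. In DMSO PAIP2B was higher by 0.85 ± 0.0664, MKNK2, a kinase of eIF4E, by 0.56 ± 0.0195 and LARP1 lower by −0.55 ± 0.0209. EIF4EBP1 was lower in DMSO by −0.16 and higher in neratinib by 0.25, EIF4EBP2 was higher by 0.32 and 0.26, and PDCD4 by 0.07 and 0.05. The PDCD4 value in neratinib did not pass with library totals (adjusted p = 0.0969) or without KO-labelled DMSO 3, KO-labelled neratinib 1 or 2, or parental neratinib 1 (adjusted p from 0.0539 to 0.107). In neratinib GIGYF2, an EIF4E2 partner, was higher by 0.45, DDX3X lower by −0.41 and PAIP1 lower by −0.38. The interaction was 0.53 ± 0.0326 for LARP1, −0.52 ± 0.0844 for PAIP2B and 0.41 ± 0.0718 for EIF4EBP1.

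The kinases, phosphatase subunits and effectors of eIF2 signalling numbered 9. In KO-labelled cells 5 were higher and 0 lower in DMSO, against 36.0% and 35.6% of all tested genes, and 5 were higher and 3 lower in neratinib, against 34.7% and 36.9%. IMPACT, an inhibitor of GCN2, was higher by 0.35 in DMSO, PPP1R15B, a further phosphatase subunit, by 0.37 and ATF4 by 0.48 ± 0.0179. In neratinib EIF2AK3 was higher by 0.49, while ATF4 was lower by −0.43 and DDIT3 by −0.73. The stress kinases EIF2AK1, EIF2AK2 and EIF2AK4 were at 0.09, −0.03 and 0.01 in DMSO and at −0.20, 0.31 and 0.07 in neratinib. The 0.07 of EIF2AK4 did not pass without KO-labelled neratinib 3 or parental neratinib 1 or 2 (adjusted p from 0.0531 to 0.105). With neratinib 5 of the 9 rose and 3 fell in parental cells, against 41.8% and 38.9% of all tested genes. In KO-labelled cells 3 rose and 4 fell, against 38.9% and 38.4%. PPP1R15A, which directs the phosphatase to eIF2 alpha, rose by 1.09 ± 0.0337 in KO-labelled and 1.26 ± 0.0347 in parental cells. EIF2AK3, the endoplasmic reticulum kinase PERK, had 51.8, 53.3 and 52.2 CPM in KO-labelled cells in neratinib, against 21.5, 23.1 and 22.4 CPM in DMSO, and 36.7, 36.6 and 38.5 CPM in parental cells in neratinib, against 23.1, 22.4 and 24.0 CPM in DMSO. It rose without overlap in both, by 1.23 and by 0.69. ATF4, the transcription factor made when eIF2 is phosphorylated, had 328, 318 and 321 CPM in KO-labelled cells in neratinib, against 745, 737 and 754 CPM in DMSO, and 435, 435 and 430 CPM in parental cells in neratinib, against 536, 537 and 534 CPM in DMSO. Its mRNA was thus highest in KO-labelled cells in DMSO and lowest in KO-labelled cells in neratinib, with an interaction of −0.90 ± 0.0259 (adjusted p = 2.57e-29). DDIT3, a target of ATF4, fell by 0.55 in KO-labelled cells and rose by 0.28 in parental cells. The heme-regulated kinase EIF2AK1 was at 0.03 in KO-labelled cells (adjusted p = 0.0965) and rose by 0.32 in parental cells, while IMPACT rose by 0.34 in KO-labelled and 0.38 in parental cells. With library totals EIF2AK1 rose in KO-labelled cells too, by 0.0897 (adjusted p = 3.21e-05). The RNA-activated kinase EIF2AK2 was at 0.00 (adjusted p = 0.919) in KO-labelled cells and fell by 0.34 in parental cells, and EIF2AK4, the amino acid sensor GCN2, fell by 0.32 and 0.38.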

How the data were processed

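The authors deposited 1 table of read counts, whole numbers by gene, for bulk RNA of 12 libraries, 3 in each of 4 groups. Per the labels' protocols, libraries were made with the TruSeq RNA v2 kit, which does not mark strand. The submitters' processing notes name STAR 2.7.9, edgeR 3.40.2 and FastQC 0.11.7. For the counting program and annotation the answer is not given in the sources used here, so reads of overlapping genes cannot be separated. Lines without a symbol (581 of 28395, 0.0877% to 0.124% of counts) were left out.

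Counts were filtered (filterByExpr), scaled by TMM and fitted with edgeR 4.0.16 (R 4.3.3), with a mean per group over all 12 libraries, leaving 8 residual degrees of freedom. Quasi-likelihood p-values were adjusted by Benjamini-Hochberg over 16208 genes and called below 0.05. The model was tested on simulated data. Errors on log2 fold changes are SE. The common coefficient of variation between replicates was 1.86%, so small differences passed. Named genes were the 4 largest called rises and falls of each comparison, all members at 1.5-fold or more, a fixed group of factors, and the 3 largest called changes of each further list; other members were named to account for all 45. EIF4A2 to EIF4A1 could not be given as a ratio. Promoter windows came from RefSeq (36 of 45 members matched), and shared windows of 50 bases and gene positions from GENCODE 29. The rule for members uses symbols alone, but the members and lists were chosen with earlier results of these data known. Alternatives tried were other scalings, filters and tools (DESeq2 1.42.0), a replicate block, a set coefficient of variation, only the groups compared, and leaving out each library.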

Additional observations from a re-analysis of the deposited data

Results flagged for a closer look

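The response to neratinib differed between KO-labelled and parental cells, by a test of the difference itself, for the 14 members listed here. The naming rule takes the largest changes from members already called, so their number is not a result. Among the 44 tested members 18 values were higher and 13 lower, against 21.5% and 24.6% of all tested genes. With the coefficient of variation set to 0.1, only EIF4A2 and EEF1A2 remained called, against 1436 of all 16208 tested genes. Each value subtracts the parental log2 response from the KO-labelled one. In the cap complex the difference was 0.51 for EIF4A2, 0.48 for EIF4E3, 0.26 for EIF4G1, −0.09 for EIF4B, −0.29 for EIF4E2 and −0.35 for PABPC1. Among elongation factors it was 0.50 for EEF1A2, −0.08 for EEF2, −0.13 for EEF1A1 and −0.24 for EEF2K. It was 0.26 for EIF2S1, 0.24 for EIF6, 0.41 for EIF3C and −0.19 for EIF3F. The EEF2 difference did not pass without parental DMSO replicate 3, KO-labelled DMSO replicate 1 or parental neratinib replicate 1 or 3, with values from −0.0571 to −0.0554 and adjusted p from 0.0813 to 0.1 (edgeR). Nor did the EEF2 value pass with size factors of the DESeq2 kind (−0.0538, adjusted p = 0.0843, edgeR). The EIF4B difference did not pass without parental DMSO replicate 3 (−0.0629, adjusted p = 0.0891, edgeR). It also failed with those size factors (−0.0678, adjusted p = 0.0516, edgeR) and with DESeq2 (−0.0675, adjusted p = 0.0561).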

How the results depend on the processing

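Setting the coefficient of variation between replicates to 0.1 reduced the calls most. It left 5 members higher and 11 lower in KO-labelled cells in DMSO (11 and 25 in the fit reported), 4 and 8 in neratinib (14 and 19), 7 risen with neratinib in parental cells (14), 5 in KO-labelled cells (13), and 2 higher and 0 lower interactions (18 and 13). Falls with neratinib remained at 22 and 20 (28 and 26). Of all 16208 tested genes, that setting called, in either direction, 10265 with neratinib in parental and 9308 in KO-labelled cells. Between genotypes it called 6974 in DMSO and 6950 in neratinib, and for the interaction 1436. Size factors of the DESeq2 kind gave 8 lower interactions, and leaving out single libraries gave 8 to 14. The remaining member counts stayed within 1.5 times their main value under every setting run. Library totals put the median of all genes at 0.118 for neratinib in parental cells, against 0.0389 with TMM. Signs turned for values near 0. EEF1A2 with neratinib in KO-labelled cells was −0.0341 without a filter, −0.00108 with DESeq2 and −0.0185 to 0.0151 without single libraries (−0.00819 in between), but higher with library totals (0.0602) and among genes averaging 5 CPM or more (0.0696). EIF2AK2 there was −0.0342, −0.00123 and −0.0381 to 0.0624 (−0.0248, −0.0233 and −0.000971 in between), and EIF2AK1 was −0.00467 without a filter but 0.0897 and 0.0991 under those 2 settings. EIF2AK4 in KO-labelled against parental cells in DMSO was −0.00055 with DESeq2-style size factors, −0.00319 with DESeq2 and −0.00968 to 0.0362 without single libraries (−0.00286 and −0.00281 in between). EIF4E between genotypes ran from −0.0621 to 0.00214 in DMSO and from −0.0118 to 0.0565 in neratinib without single libraries. Of called values, EEF2K with neratinib in KO-labelled cells became 0.000365 and PDCD4 in parental cells 0.00375 at a mean of at least 5 CPM, and PDCD4 0.0225 with library totals. EEF2K between genotypes in neratinib was 0.00105 at that mean. The cause was not tested. Over all alternatives, 118 values of single genes lost their call and 12 gained one. Replicate numbers did not pair the libraries (correlations of deviations from −0.0466 to 0.0396). With the replicate block the count of members higher in KO-labelled cells in neratinib was 13, since EIF4A2 did not pass there (0.0414, adjusted p = 0.0621, edgeR). The cause of the 0 for EIF4A1 was not tested.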

Other observations

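Genes outside the set that act later in translation or modify the factors were also measured. Of 6 termination, recycling and rescue genes, 4 fell with neratinib in parental cells and 5 in KO-labelled cells, and none rose, against 38.9% and 38.4% of all tested genes that fell. ABCE1, which splits ribosomes after termination, fell by 0.62 ± 0.0270 in KO-labelled and by 0.95 ± 0.0255 in parental cells. ETF1, the release factor that reads stop codons, fell by 0.39 and 0.75, and its partner GSPT1 by 0.59 and 0.65. ABCE1 was also lower in KO-labelled than in parental cells in DMSO, by −0.46, and ETF1 was lower by −0.07 in DMSO and higher by 0.29 in neratinib. The interaction was 0.36 for ETF1, 0.33 for ABCE1 and 0.19 for HBS1L, a ribosome rescue factor. PELO, its partner, was lower in KO-labelled cells in neratinib by −0.14 with overlapping groups, and did not pass with DESeq2 or without KO-labelled neratinib 3 (−0.0791) or parental neratinib 1 (−0.12) or 3 (−0.128).

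Of 14 enzymes that modify the factors, 9 were lower and 1 higher in KO-labelled cells in DMSO, and 11 were lower and 0 higher in neratinib. Of all tested genes, 35.6% were lower and 36.0% higher in DMSO, and 36.9% and 34.7% in neratinib. EEF1AKMT3, a methyltransferase of eEF1A, was lower by −0.90 ± 0.123 in DMSO and −0.82 ± 0.0963 in neratinib, and rose with neratinib by 0.89 in KO-labelled and 0.81 in parental cells. DPH6, an enzyme of diphthamide synthesis on eEF2, was lower by −0.84 ± 0.0859 in DMSO, and DPH1 of the same pathway by −0.78 ± 0.0395 in neratinib. EEF2KMT, a methyltransferase of eEF2, fell with neratinib by 1.07 in KO-labelled and 1.19 in parental cells. With neratinib 4 of the 14 rose and 10 fell in KO-labelled cells, and 5 rose and 7 fell in parental cells, where 38.9% and 38.4% of all tested genes rose and fell in KO-labelled cells and 41.8% and 38.9% in parental cells. EEF1AKMT2 was lower in KO-labelled cells by −0.56 in DMSO and METTL13, another eEF1A methyltransferase, by −0.59 in neratinib. DPH3 fell with neratinib by 0.60 in KO-labelled and DPH6 by 0.84 in parental cells. The interaction was 0.49 for DPH6, −0.34 for EEF1AKMT1 and −0.51 for DPH1. That of EEF1AKMT1 did not pass with DESeq2 (adjusted p = 0.0955) or without KO-labelled DMSO 2, KO-labelled neratinib 2, parental DMSO 1 or parental neratinib 1 (−0.291 to −0.242, adjusted p from 0.0557 to 0.104, edgeR).

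Of 10 mitochondrial translation factors, none was higher in KO-labelled cells, 6 being lower in DMSO and 8 in neratinib, against 35.6% and 36.9% of all tested genes that were lower. MTRFR, a mitochondrial ribosome rescue factor, was lower by −0.84 ± 0.0530 in DMSO and −0.83 ± 0.0513 in neratinib, and MTRF1 by −0.44 and −0.65. MRRF, a recycling factor, was lower by −0.32 in DMSO and GFM2 by −0.46 in neratinib. With neratinib 5 rose and 3 fell in KO-labelled cells, where 38.9% of all tested genes rose and 38.4% fell. In parental cells 7 rose and 3 fell, where 41.8% of all tested genes rose and 38.9% fell. The elongation factor GFM1 fell by 0.51 in KO-labelled and by 0.60 in parental cells, and MTIF2, an initiation factor, rose by 0.43 and 0.54. MRRF rose by 0.50 in KO-labelled and MTRF1 by 0.62 in parental cells. The interaction was 0.17 for MRRF, −0.23 for TSFM and −0.28 for MTIF3.

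Of 11 other initiation factors tested, 2 were higher and 8 lower in KO-labelled cells in DMSO, against 36.0% and 35.6% of all tested genes. In neratinib 2 were higher and 6 lower, against 34.7% and 36.9%. With neratinib 4 rose and 3 fell in KO-labelled cells, against 38.9% and 38.4% of all tested genes. In parental cells 3 rose and 6 fell, against 41.8% and 38.9%. Here EIF2D, which can load initiator tRNA without eIF2, was lower in KO-labelled cells by −0.46 ± 0.0561 in DMSO and −0.84 ± 0.0539 in neratinib, EIF5A2 was higher by 0.56 ± 0.163 and 1.09 ± 0.181, and EIF1B was lower by −0.46 in DMSO. DENR, a reinitiation factor, was lower by −0.59 in neratinib and fell with neratinib by 0.83 in KO-labelled and 0.63 in parental cells. EIF5AL1, EIF3CL and PABPC3 share sequence with EIF5A, EIF3C and PABPC1, so part of their reads may belong to those members. EIF5AL1 fell with neratinib by 0.62 in KO-labelled and 0.72 in parental cells, and PABPC3 rose by 0.28 and 0.62. The interaction was 0.40 for EIF3CL, −0.34 for PABPC3 and −0.38 for EIF2D.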
